A study of Homo sapiens with 6 samples.

Results

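The knockdown of BMI1 in A2780 cells was read on 3 of the 6 arrays of the series: 1 array of cells infected with BMI1 Ctrl, 1 with BMI1 shRNA1 and 1 with BMI1 shRNA2. The arrays were chosen by their infection labels alone, and 18418 genes were measured on each. A2780 is a human ovarian cancer cell line. All 6 cultures were infected with a lentivirus that carries a short hairpin RNA (shRNA), which directs the cell's RNA interference machinery against a matching transcript, and RNA was taken 96 hours later from cells in medium with 10% fetal bovine serum. The labels give neither the target of the control hairpin nor the hairpin sequences. The other 3 arrays are of cells with a hairpin for the long non-coding RNA FAL-1 (shRNA1 or shRNA2) or with its control, FAL-1 Ctrl. They enter here as a second control level and as part of the estimate of spread. Every value is for 1 cell line, with 1 array per hairpin and 1 control array, and nothing says that the arrays came from separate experiments, so the spread between them may be technical.

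Array values are on a log2 scale, on which a difference of 1 is a 2-fold change in signal. A level of one gene is not comparable with that of another gene, because each probe set binds its target differently, so differences between arrays are compared, and levels are set against an array's median only to check markers of cell identity. "Higher" and "lower" describe the measured values and carry no statistical call unless a test is named. An exact permutation test of 2 arrays against 1 cannot reach p = 0.05. The test used was limma, fitted to all genes over all 6 arrays with 2 residual degrees of freedom. No gene passed an adjusted p of 0.05 (0 of 18418 genes, 0%). At an unadjusted limma p of 0.05, 477 genes (2.59%) passed, 189 higher (1.03%) and 288 lower (1.56%) with BMI1 knockdown. The smallest adjusted p was 0.9998, so all the differences below are descriptions of 3 arrays. With so few arrays, a count of 0 does not show that genes did not differ. Array medians over genes ran from 7.50 to 7.61, and arrays correlated across genes at 0.968 to 0.993.

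BMI1, also known as PCGF4, is a RING finger subunit of Polycomb repressive complex 1 (PRC1). It pairs with the ubiquitin ligases RING1 or RNF2, and the complex places ubiquitin on histone H2A and compacts chromatin over silenced genes. A second complex, PRC2, methylates histone H3 and shares many target genes with PRC1. BMI1 is best known for silencing the CDKN2A locus and for supporting the proliferation of stem cells and of many tumours.

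The BMI1 probe set, which is annotated also to the readthrough transcript COMMD3-BMI1, read 10.64 in BMI1 Ctrl, 8.73 with shRNA1 and 9.99 with shRNA2. Both hairpin arrays were below the control, and shRNA1 was far lower than shRNA2: 26.8% of the control signal remained with shRNA1 and 64.0% with shRNA2. The mean change was -1.27 ± 0.89 (SD, n = 2 hairpins), with a limma standard error of 0.55. The hairpins left unequal BMI1 signal, and each is shown beside the other throughout.

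The other subunits of PRC1 stayed closer to the control. Of 30 listed PRC1 genes 27 were measured; 8 were above BMI1 Ctrl with both hairpins and 12 below it, and BMI1 alone was past 1.5-fold with both. Over all genes, 32.9% were above the control with both hairpins and 30.7% below it, while 0.901% were at least 1.5-fold lower with both. Among the PCGF subunits that can take the place of BMI1, PCGF2, its closest relative, read 9.65 in the control, 9.57 with shRNA1 and 9.32 with shRNA2. PCGF3, of a variant complex, was above the control with both hairpins (by 0.28 and 0.44), and PCGF6, of another, was below it (-0.24 and -0.26). A second PCGF6 probe set, almost as bright (10.64 against 10.80 in the control), differed by more, at -0.37 and -0.55. PCGF1 and PCGF5 lay within 0.11 of the control. RING1, the measured ligase, differed by 0.37 with shRNA1 and 0.03 with shRNA2. Against FAL-1 Ctrl the direction was the opposite for PCGF6 (0.08 on average, at its brighter probe set), PCGF1 (-0.41), PCGF5 (0.04) and RING1 (-0.14).

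Several PRC1 partners followed only 1 hairpin. BCOR, a scaffold of the PCGF1 complex, was lower by 0.74 with shRNA1 (level 9.18 against 9.91) and lay at 9.73 with shRNA2. SCML2, a Polycomb protein with MBT repeats, showed the opposite order, at 9.71 with shRNA1 and 9.04 with shRNA2 against 9.76. CBX2, the chromodomain subunit that compacts chromatin, differed by -0.22 and -0.57. KDM2B, which brings a variant complex to CpG islands, was lower with both hairpins (-0.38 and -0.27), as was SCMH1 (-0.32 and -0.31). L3MBTL2, a subunit of the PCGF6 complex, was higher by 0.29 and 0.34.

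In PRC2, 12 of 12 listed genes were measured, with 2 above the control with both hairpins and 6 below. None was past 1.5-fold with both, beside 1.44% of all genes. EZH2, the main methyltransferase in dividing cells, read 10.44 in the control, 10.25 with shRNA1 and 9.85 with shRNA2. Its relative EZH1, which is used more in resting cells, read 8.72, 9.20 and 9.01. The 2 enzymes thus lay on opposite sides of the control. EPOP, an accessory subunit, was lower by 0.82 and 0.36, and SUZ12 and EED lay on both sides of the control. Against FAL-1 Ctrl, the mean of the BMI1 hairpin arrays was lower by 0.54 for EZH2 and higher by 0.12 for EZH1.

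**Figure D1:**
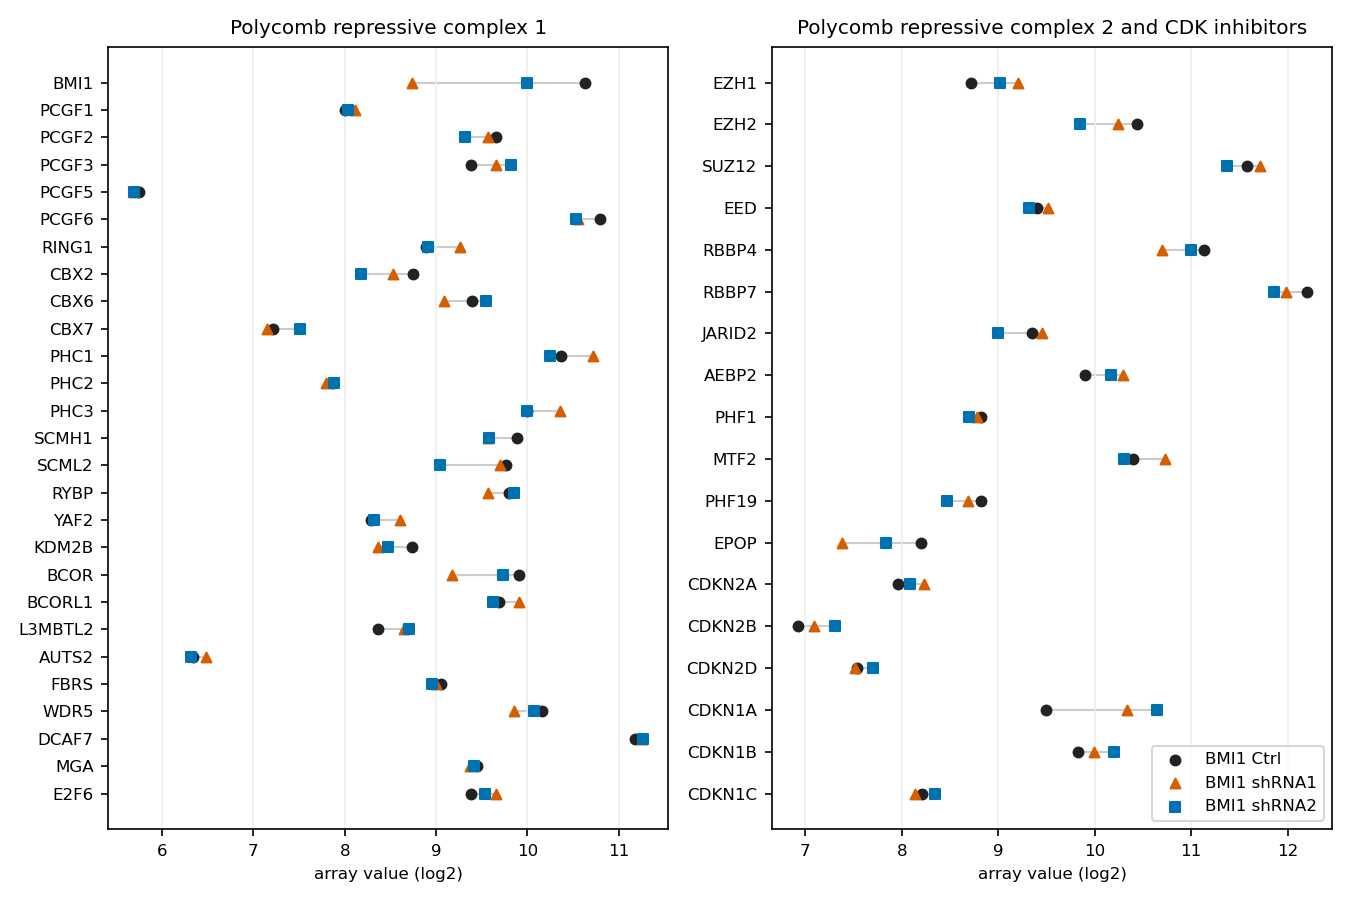
Levels (log2, horizontal axis) of the measured PRC1 genes (left) and of PRC2 and CDK inhibitor genes (right) on the BMI1 Ctrl, BMI1 shRNA1 and BMI1 shRNA2 arrays; each point is 1 array and a grey line joins the 3 arrays of a gene. BMI1 spans 10.64 to 8.73, and CDKN1A is the only gene of the right panel with both hairpin arrays past 1.5-fold.

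Across the genome most genes lay close to the control with each hairpin. The median absolute change was 0.12 with shRNA1 and 0.15 with shRNA2. With shRNA1, 322 genes (1.75%) were at least 1.5-fold higher and 600 (3.26%) at least 1.5-fold lower. With shRNA2 the numbers were 363 (1.97%) and 709 (3.85%). So shRNA2, with the smaller loss of BMI1 signal, had the larger number of genes past 1.5-fold. Both hairpins together gave 99 genes at least 1.5-fold higher (0.538%) and 166 at least 1.5-fold lower (0.901%), 265 in all (1.44%). Past 2-fold with both hairpins were 19 higher and 17 lower genes.

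Because both hairpins share 1 control array, an unusual value on that array moves both differences. Of the 99 higher genes, 84 were also above FAL-1 Ctrl with both BMI1 hairpins (31.8% of all genes were), and 163 of the 166 lower genes were also below it (37.7% of all genes). Both comparisons use the same 2 hairpin arrays, on which these genes were chosen for extreme values, so this overlap is a description and no separate support. At 1.5-fold against each of the 2 control arrays, a rule added after the data were seen, 33 higher genes (0.179%) and 86 lower genes (0.467%) were left. Signal strength also mattered. Of genes with a mean level from 6.21 to 7.58, 72.3% were higher with shRNA2 than with shRNA1, and of genes from 9.20 upwards 40.3%. The part of this offset in the lists of dim or bright genes below was not tested.

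**Figure D2:**
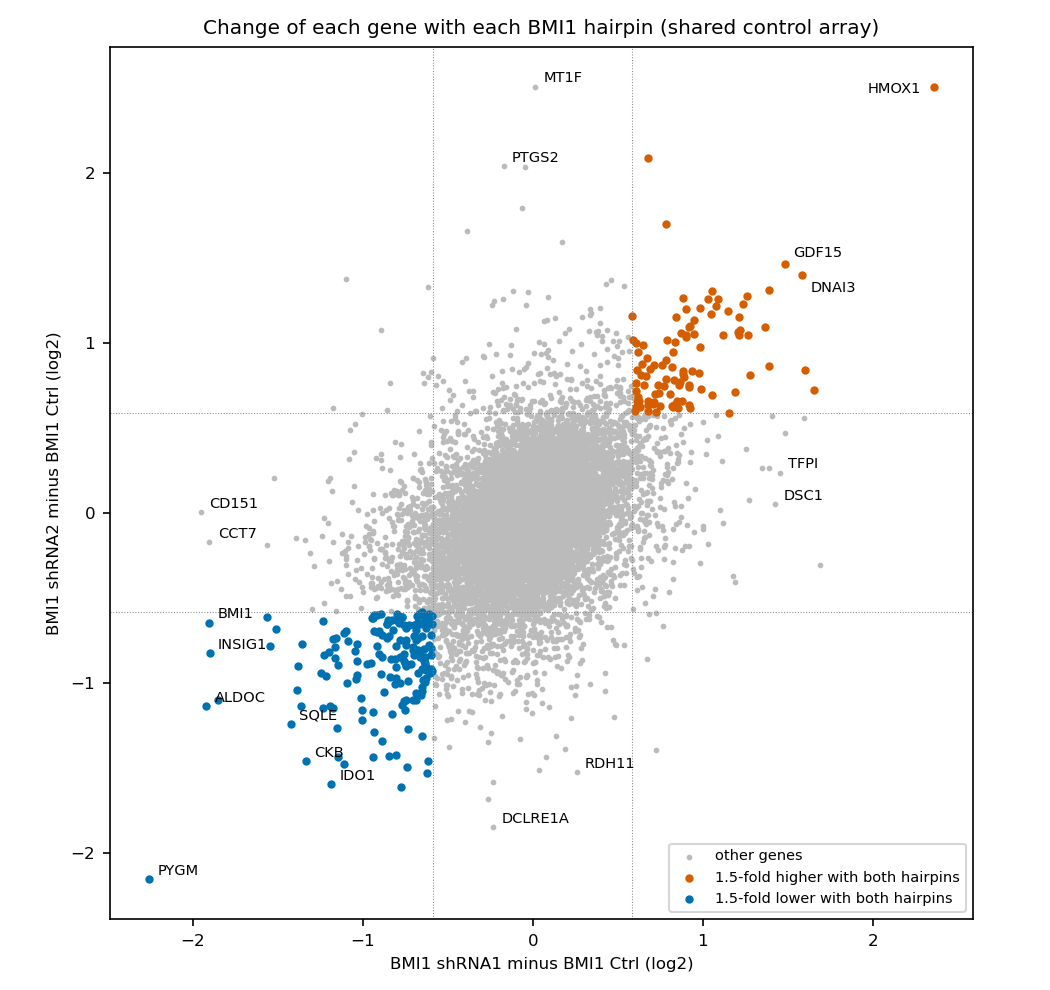
Each point is 1 of 18418 genes, with its change with BMI1 shRNA1 (horizontal) and with BMI1 shRNA2 (vertical) against the shared BMI1 Ctrl array, in log2; dotted lines mark 1.5-fold. The 99 orange genes are at least 1.5-fold higher and the 166 blue genes at least 1.5-fold lower with both hairpins; both axes use the same control array.

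HMOX1, which encodes the enzyme that breaks down haem, had the largest difference on the higher side. It read 8.30 in BMI1 Ctrl, 10.66 with shRNA1 and 10.80 with shRNA2, a mean difference of 2.43 ± 0.10 (SD, n = 2 hairpins), or 5.40-fold. FAL-1 Ctrl read 8.85, also below both. HBP1, a transcriptional repressor that slows entry into S phase, read 7.79, 9.05 and 9.06 and was 2.40-fold higher on average. FAL-1 Ctrl read 8.53 for HBP1, and the mean difference from that control was smaller, at 0.53. TULP3, an adaptor that carries receptors into the primary cilium, read 9.31, 10.46 and 10.50. MARCHF8, a membrane ubiquitin ligase that takes surface receptors down, read 8.15, 9.23 and 9.37. For TULP3 and MARCHF8 the 2 control arrays lay close together (9.31 and 9.37 for TULP3, 8.15 and 8.22 for MARCHF8), and both hairpin arrays stood about 1 log2 unit or more above them.

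Several other genes in this group read differently on the 2 control arrays. GDF15, a secreted stress factor of the TGF-beta family, read 9.49 in BMI1 Ctrl and 10.97 and 10.95 with the hairpins, but 10.76 in FAL-1 Ctrl. FOS, an immediate early transcription factor, read 7.01, 8.06 and 8.18, and 8.07 in FAL-1 Ctrl. For CCN1, a matrix protein induced by YAP, the difference was 1.09 and 1.26 against BMI1 Ctrl and 0.24 on average against FAL-1 Ctrl. CCN2, a related matrix protein, was above both controls, by 1.21 and 1.06 against BMI1 Ctrl and by 1.61 on average against FAL-1 Ctrl. TP53I3, a quinone oxidoreductase, was higher by 1.22 and 1.08, and by 0.73 on average against FAL-1 Ctrl. DNAI3, an axonemal dynein intermediate chain, was higher by 1.58 and 1.40, and by 1.23 on average against FAL-1 Ctrl. The rest of the 15 genes with the largest changes common to both hairpins were ANKRD20A8P, DENND2C, ANKRA2, TRIM55 and SERPINB8. ANKRD20A8P rests on its brightest probe set (1.39 and 1.31). Its dimmer ones differed by less, from 0.31 to 0.67 with shRNA1 and from 0.07 to 0.59 with shRNA2. DENND2C and ANKRA2 lay 0.57 and 0.45 above FAL-1 Ctrl on average.

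PYGM, the muscle form of glycogen phosphorylase, led the lower genes. It read 8.68 in BMI1 Ctrl, 6.42 with shRNA1 and 6.52 with shRNA2, a mean of -2.21 ± 0.07 (SD, n = 2 hairpins), and 20.9% and 22.5% of the control signal remained. CKB, brain-type creatine kinase, which buffers ATP through phosphocreatine, read 10.25, 8.92 and 8.79. SQLE, squalene epoxidase of cholesterol synthesis, read 10.17, 8.75 and 8.93. IDO1, which turns tryptophan into kynurenine, read 10.09, 8.91 and 8.49. In all 4 both hairpin arrays were more than 1 log2 unit below the control. They were close to each other for PYGM, CKB and SQLE and further apart for IDO1. FAL-1 Ctrl (8.37 for PYGM, 10.29 for CKB, 10.97 for SQLE, 9.64 for IDO1) also lay above both hairpin arrays.

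CCNC, cyclin C of the Mediator kinase module, read 10.42 in BMI1 Ctrl, 9.27 with shRNA1 and 9.15 with shRNA2. The other members of that module did not share its size of change: CDK19 differed by -0.15 and -0.60, MED13 by -0.13 and -0.31, and MED13L by 0.56 and 0.19. ATP1B2, a beta subunit of the sodium pump, read 8.55, 7.32 and 7.41. SHMT1, the cytosolic serine hydroxymethyltransferase of folate metabolism, read 9.04, 7.68 and 7.90. ALDOC, a fructose-bisphosphate aldolase, and SEPTIN3, a neuronal septin, were lower by more with shRNA1 (-1.92 and -1.85) than with shRNA2 (-1.13 and -1.10). TMEM145, OSGEPL1, RIMKLA, LOC100506730, UPK1A and ENO2 complete the 15 lower genes, with mean changes against FAL-1 Ctrl from -1.32 for UPK1A to -0.75 for LOC100506730.

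**Figure D3:**
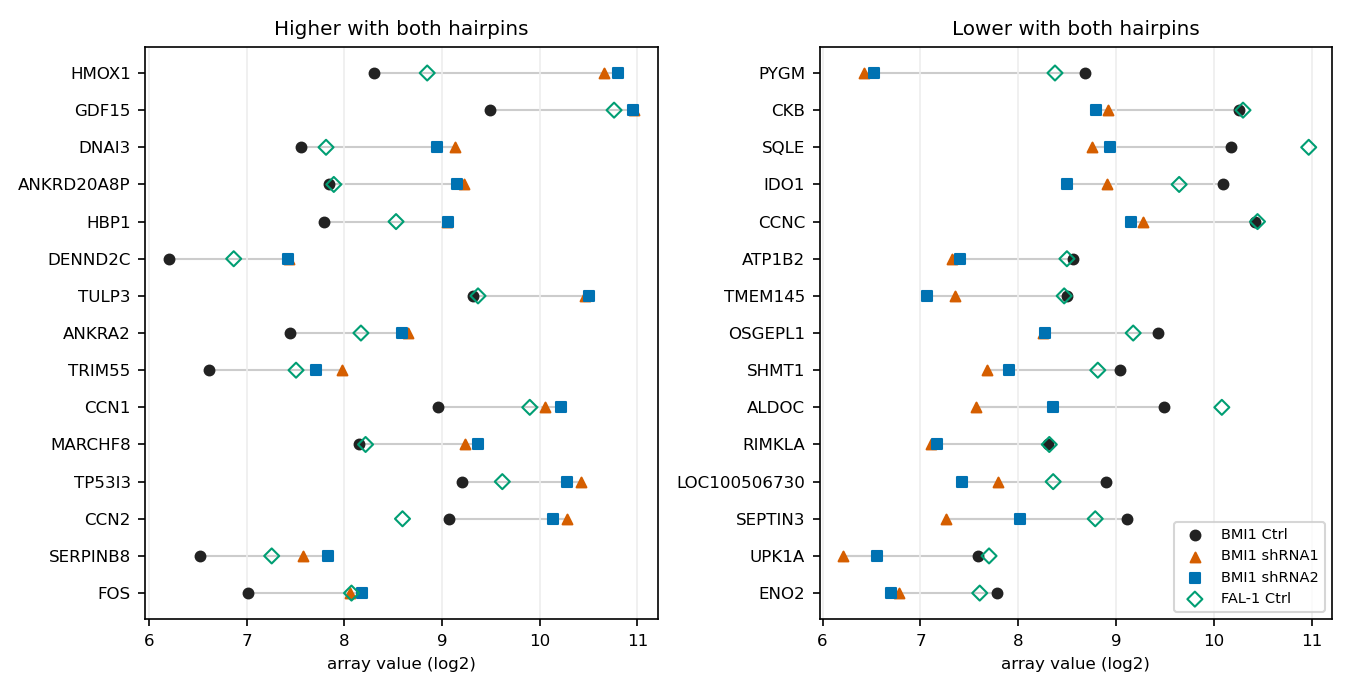
Levels (log2) of the 15 higher (left) and 15 lower (right) genes with the largest change common to both hairpins; filled points are the BMI1 Ctrl, shRNA1 and shRNA2 arrays, and open diamonds are the FAL-1 Ctrl array. For GDF15 and FOS the diamond lies beside the hairpin arrays, whereas for TULP3, CKB and CCNC it lies beside BMI1 Ctrl.

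The hairpins also had changes that the other did not share. With shRNA1, 104 of 18418 genes were at least 1.5-fold higher and 233 at least 1.5-fold lower while shRNA2 lay within 1.2-fold of the control. They are part of the 322 higher (1.75% of all genes) and 600 lower genes (3.26%) with shRNA1. Each hairpin was read on 1 array, so whether such differences repeat was not tested. CD151, a tetraspanin that binds integrins, read 11.17 in the control, 9.22 with shRNA1 and 11.17 with shRNA2. CCT7, a subunit of the cytosolic chaperonin, read 12.17 in the control and 10.27 with shRNA1 and differed by -0.17 with shRNA2, and LRP8, a reelin receptor, 9.95, 8.39 and 9.76. On the higher side, TFPI, an inhibitor of the coagulation pathway, read 7.75, 9.20 and 7.98, and SEMA3A, a secreted guidance cue, 8.35, 9.47 and 8.29.

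With shRNA2 the numbers were 131 of the 363 higher genes (1.97% of all genes) and 291 of the 709 lower genes (3.85%). PTGS2, the inducible cyclooxygenase, read 8.21 in the control, 8.04 with shRNA1 and 10.25 with shRNA2. MT1F, a metallothionein that binds zinc and copper, read 7.90, 7.91 and 10.40. All 13 measured metallothionein symbols, a group chosen after the values were seen, were higher with shRNA2 than with shRNA1, with differences from 0.35 to 2.49. The same 13 were also higher with FAL-1 shRNA2 than with FAL-1 shRNA1, with differences from 0.36 to 1.54. For PTGS2 the mean over both hairpins lay 0.43 below FAL-1 Ctrl. That mean pools 8.04 with shRNA1 and 10.25 with shRNA2, and the shRNA2 array alone lay above FAL-1 Ctrl. The metallothionein genes are near-identical copies, so their probe sets may read each other and are not 13 separate observations. On the lower side DCLRE1A, a nuclease of crosslink repair, read 8.28, 8.05 and 6.43, and RDH11, a retinol dehydrogenase, 9.66, 9.92 and 8.13.

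CDK inhibitors hold the cell cycle in G1, and CDKN2A, which encodes p16 and ARF, is the classic target of BMI1. CDKN2A read 7.96 in the control, 8.23 with shRNA1 and 8.08 with shRNA2, and CDKN2B, its neighbour, read 6.92, 7.09 and 7.31. Both were above the control with both hairpins, as were 32.9% of all genes. The median absolute change over all genes was 0.12 with shRNA1 and 0.15 with shRNA2. Against FAL-1 Ctrl the mean differences of CDKN2A and CDKN2B were 0.08 and 0.21. CDKN1A, which encodes p21 and which the study followed in its own right, read 9.50, 10.34 and 10.65 and was the only 1 of 6 measured CDK inhibitors past 1.5-fold with both hairpins. FAL-1 Ctrl read 9.65 for CDKN1A. CDKN1B differed by 0.17 and 0.37 against BMI1 Ctrl but by -0.32 on average against FAL-1 Ctrl.

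Genes of cell death and stress were described by receptor and by family. FAS, the death receptor, read 7.86, 8.84 and 9.06, with 7.90 in FAL-1 Ctrl. TNFRSF10D, a decoy receptor, read 10.10, 10.98 and 10.76. On both genes the hairpin arrays lay above the control, and FAL-1 Ctrl was near BMI1 Ctrl for FAS. In the BCL2 family, BCL2 itself was higher by 0.24 and 0.30 and BAX by 0.18 and 0.32. BCL2L11, which encodes BIM, was lower by 0.72 and 0.32. None of the 15 measured was past 1.5-fold with both, beside 1.44% of all genes. BID, which links death receptors to mitochondria, was lower by 0.51 and 0.02. Against FAL-1 Ctrl the means were 0.13 for BID and 0.04 for BCL2L11, on the other side. PERP, a desmosomal protein, was higher by 0.39 and 0.43, while SIVA1 was lower by 0.34 and 0.30. ACER2, a Golgi ceramidase, read 7.73, 8.99 and 8.77, and PLK2, a kinase of the stress response, was higher by 0.88 and 1.26. CCND1, cyclin D1, was lower with both hairpins (-0.45 and -0.64).

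Genes of cell division lay below the control almost without exception in the replication and mitosis lists. E2F factors switch on G1/S genes when the pocket proteins release them, and mitotic genes are driven later through a promoter element called CHR, bound by the DREAM and MuvB complexes. Sequences that carry these elements are shown for 4 members, to make visible the letters that are counted over the lists. The promoters are the 250 bases before an annotated start, from RefSeq on GRCh38.p14, 5′ to 3′ on the gene's strand. Capitals mark the motif, E2F (TTTCCCGC, TTTCGCGC, TTTGCCGC or TTTGGCGC) in the first pair and CHR (TTTGAA or TTCGAA) in the second, each searched on both strands, with overlapping matches counted.
MCM6 promoter, chr2:135876444-135876693, minus strand: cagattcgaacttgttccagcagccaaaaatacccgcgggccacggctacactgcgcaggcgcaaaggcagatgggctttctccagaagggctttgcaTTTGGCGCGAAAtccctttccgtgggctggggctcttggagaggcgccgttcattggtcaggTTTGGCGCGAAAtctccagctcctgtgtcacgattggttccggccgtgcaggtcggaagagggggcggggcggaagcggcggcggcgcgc
UHRF1 promoter, chr19:4909251-4909500, plus strand: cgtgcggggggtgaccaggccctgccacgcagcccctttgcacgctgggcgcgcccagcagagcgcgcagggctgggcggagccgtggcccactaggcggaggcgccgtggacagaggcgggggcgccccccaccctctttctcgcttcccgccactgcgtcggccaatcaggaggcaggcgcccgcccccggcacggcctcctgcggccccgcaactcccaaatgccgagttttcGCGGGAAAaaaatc
ESPL1 promoter, chr12:53268049-53268298, plus strand: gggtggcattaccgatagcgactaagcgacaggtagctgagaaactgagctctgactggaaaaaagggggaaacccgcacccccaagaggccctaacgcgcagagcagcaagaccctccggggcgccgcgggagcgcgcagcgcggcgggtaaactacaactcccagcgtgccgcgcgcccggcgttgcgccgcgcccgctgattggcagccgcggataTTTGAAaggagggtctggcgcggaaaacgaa
TOP2A promoter, chr17:40417897-40418146, minus strand: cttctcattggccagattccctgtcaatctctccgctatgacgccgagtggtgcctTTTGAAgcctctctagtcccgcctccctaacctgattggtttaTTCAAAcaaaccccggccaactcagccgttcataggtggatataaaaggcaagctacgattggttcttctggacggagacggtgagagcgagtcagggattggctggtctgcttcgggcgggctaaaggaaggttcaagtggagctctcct

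MCM6, a subunit of the replicative helicase, has 4 E2F matches in this window, which overlap in 2 stretches, and 1 CHR match left in lower case. It read 10.32 in the control, 9.54 with shRNA1 and 9.48 with shRNA2. UHRF1, which keeps DNA methylation through replication, has 1 match, 6 bases from the start, and read 10.63, 9.74 and 9.68. A second, dimmer UHRF1 probe set (6.49 in the control) differed by only 0.10 and -0.02. ESPL1, the separase that cuts cohesin, has 1 CHR match and read 9.31, 8.62 and 8.25. TOP2A, the topoisomerase of mitotic chromosomes, has 2 CHR matches and read 11.30, 10.61 and 10.55. All 4 genes were lower with both hairpins, by at least 0.68. They were picked among members named for their changes, so this does not link the letters to a fall. Not every named gene with a match fell as far: CDC25B, with 1 CHR match, differed by -0.31 and -0.16.

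Over the replication and mitosis lists, the letters split by phase. In windows of 300 bases around the start, an E2F match stood in 28 of 57 replication genes with a promoter (49.1%), in 1 of 23 genes of mitotic cyclins, kinases and checkpoint and in 4 of 52 of spindle, kinetochore and condensin, against 5.51% of 14240 genes. A CHR match stood in 5 of 57 replication genes (8.77%), in 16 of 23 (69.6%) and in 40 of 52 (76.9%), against 17.4% of all. Other cell cycle lists did not split in this way. Among G1 cyclins, kinases and E2F factors, 31.8% held an E2F match and 31.8% a CHR match. Among replication-dependent histones these shares were 32.6% and 30.2%. High shares were not confined to cell cycle lists. An E2F match stood in 6 of 11 PRC2 genes (54.5%), and a CHR match in 5 of 10 genes of the kynurenine pathway (50%), both small lists. Among the 166 genes lower with both hairpins, of which 129 had a promoter, 12 held an E2F match (9.3%) and 22 a CHR match (17.1%). Among the 82 higher genes with a promoter these were 5 (6.1%) and 17 (20.7%). A match is a string of letters, and binding was not measured here.

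The DNA replication list held 64 measured genes. With both hairpins 59 of them were below the control and 0 above, beside 30.7% of all genes below; 10 were at least 1.5-fold lower. The median was -0.38 with shRNA1 and -0.58 with shRNA2, beside -0.01 and 0.02 over all genes, and 52 of 64 genes were lower with shRNA2 than with shRNA1, beside 43.3% of all genes and 59.7% of genes with a mean level from 9.20 upwards. The median control level of the replication list was 10.00 and that of the mitotic kinase list 10.42, both in that range. Origin licensing genes had medians of -0.41 and -0.66, origin firing and fork genes -0.44 and -0.56, and polymerases and clamp -0.31 and -0.53. CDC6, a loader of the helicase, read 11.23, 10.47 and 10.40. CDC45, which activates that helicase, read 9.84, 8.97 and 8.78, and CLSPN, the fork checkpoint adaptor claspin, 9.08, 8.28 and 8.08. HELLS, a chromatin remodeller, had the widest gap between hairpins, at -0.25 and -1.11, and GINS1 leaned the other way, at -0.79 and -0.34. HELLS lay 0.11 above FAL-1 Ctrl on average.

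In mitosis the gap between hairpins was wider. All 28 measured genes of mitotic cyclins, kinases and checkpoint were below the control with both hairpins, with medians of -0.35 and -0.72, and 27 of 28 were lower with shRNA2 than with shRNA1. In the list of spindle, kinetochore and condensin genes, 57 of 59 were below with both, with medians of -0.31 and -0.72, and 54 of 59 were lower with shRNA2. MELK and PBK, mitotic kinases, read 10.49, 9.84 and 9.77, and 10.41, 9.75 and 9.57. SPAG5, a spindle protein, read 10.18, 9.49 and 9.08, and KIF20A, a kinesin of cytokinesis, 10.38, 9.75 and 9.45. HMMR, a spindle-associated protein, was at the control with shRNA1 (9.49 against 9.50) and at 8.44 with shRNA2. NEK2, a centrosome kinase, differed by -0.26 and -0.91. So most mitotic genes were lowest on the array with the weaker BMI1 knockdown.

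The FAL-1 arrays widen the error of these genes in the shared fit. Against FAL-1 Ctrl, the medians with the first and the second FAL-1 hairpin were -0.07 and -0.97 for replication, -0.08 and -1.16 for mitotic cyclins, kinases and checkpoint, and 0.00 and -1.31 for spindle, kinetochore and condensin. ESPL1, for example, had a mean of -0.87 ± 0.26 (SD, n = 2 hairpins) with BMI1 knockdown but a limma standard error of 0.63. Errors were also wide for CDC45 (mean -0.96, limma standard error 0.73) and CLSPN (mean -0.91, limma standard error 0.75). The falls of these lists are thus described by direction and size only and carry no statistical call. Fewer dividing cells and less of these transcripts per cell cannot be told apart in bulk RNA.

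**Figure D4:**
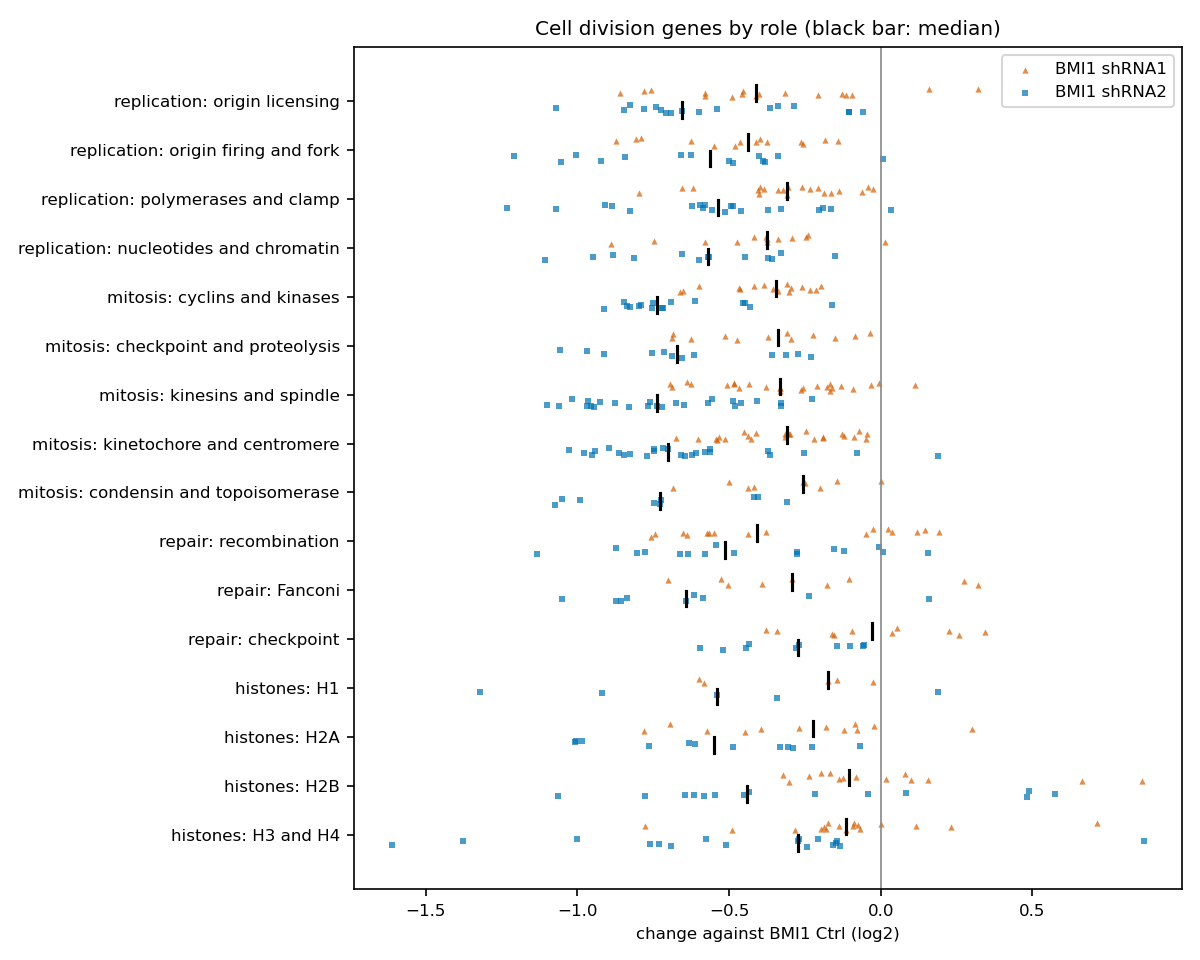
Change against BMI1 Ctrl (log2, horizontal) of each measured gene of replication, mitosis, repair and histones, grouped by role, with shRNA1 (triangles) and shRNA2 (squares); black bars are group medians. The squares lie further left than the triangles in the mitotic groups, with medians from -0.67 to -0.74 against -0.26 to -0.35.

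G1 and repair genes were less uniform. Of 29 G1 cyclins, kinases and E2F factors, 20 were below the control with both hairpins and 6 above. CCNE2, cyclin E2, read 9.54, 8.96 and 8.53, and E2F8, a late repressor of the family, 8.45, 7.71 and 7.46. CDC25A, a phosphatase that activates CDK2, was lower by more with shRNA1 (-1.23) than with shRNA2 (-0.53), and TFDP1, the E2F partner, by more with shRNA2 (-0.50 and -1.01). CDK6 was higher, by 0.58 and 0.68, but only by 0.06 against FAL-1 Ctrl. Of 35 genes of homologous recombination, the Fanconi pathway and the checkpoint, 22 were below with both, with medians of -0.16 and -0.48. BARD1, the partner of BRCA1, read 9.04, 8.47 and 7.90, EXO1, a resection nuclease, 9.84, 9.10 and 9.07, and FANCC 8.75, 8.64 and 7.70.

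Replication-dependent histone genes were below the control with both hairpins in 36 of 48 cases and above in 5, with medians of -0.14 and -0.47. The median of the hairpin mean was -0.33 against BMI1 Ctrl and -0.65 against FAL-1 Ctrl. H4C4 read 9.22, 8.45 and 7.61, and H1-5, a linker histone, 10.70, 10.12 and 9.38. The other way lay H4C8, at 8.97, 9.68 and 9.84, and H2BC11 and H2BC21, higher by 0.86 and 0.58 and by 0.66 and 0.49. These last 3 differed from FAL-1 Ctrl by 0.03, 0.01 and -0.21. Histone genes are near-identical to each other, and how their probe sets share signal is uncertain.

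Lipid and sugar metabolism held the other lower groups. Of 25 sterol synthesis genes, 18 were below with both hairpins and 5 were past 1.5-fold lower. Over the list the median was -0.31 against BMI1 Ctrl and -0.78 against FAL-1 Ctrl. The 16 enzymes had medians of -0.54 with shRNA1 and -0.25 with shRNA2, so here shRNA1 had the larger shift. INSIG1, the sterol sensor that holds back SREBP, read 8.62, 6.72 and 7.80, and ACAT2, which makes acetoacetyl-CoA, 9.53, 8.17 and 8.76. INSIG2, its relative, followed shRNA2 only (-0.09 and -0.87). ABCA1, the cholesterol exporter, was higher with shRNA2 (1.13) and near the control with shRNA1 (0.09). The sterol regulatory element (TCACNCCAC, both strands) was found in 1 of 22 sterol genes with a promoter, against 1.51% of all genes. In fatty acid synthesis, 14 of 21 were below with both, and the median was -0.24 against BMI1 Ctrl and -0.53 against FAL-1 Ctrl. FADS2 and FADS1, the desaturases of polyunsaturated fatty acids, read 11.16, 10.08 and 10.41, and 11.06, 10.32 and 10.55, while ACSL4, which activates arachidonic acid, was higher by 0.51 and 0.74 but by 0.05 against FAL-1 Ctrl.

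In glycolysis and glucose uptake, 18 of 24 genes were below with both hairpins, 1 was above and 8 were past 1.5-fold lower, with medians of -0.31 and -0.37. PDK1 and PDK3, kinases that close the entry of pyruvate into mitochondria, read 10.47, 9.46 and 9.25, and 9.29, 8.29 and 8.13. PFKFB4 and PFKFB2, which set an activator of phosphofructokinase, lay on opposite sides of the control: 7.86, 6.82 and 6.88 for PFKFB4 against 8.01, 8.34 and 9.08 for PFKFB2, which lay 0.07 below FAL-1 Ctrl on average. ENO2, the neuronal enolase, read 7.79, 6.78 and 6.70. Other hypoxia targets were split, with 13 of 22 below and 5 above with both. BNIP3, a mitophagy receptor, was lower by 0.44 and 0.55, whereas KDM3A, a histone demethylase, was higher by 0.49 and 0.78. Of 23 genes of glycogen and high-energy phosphate, only PYGM and CKB were past 1.5-fold with both; PYGL and PYGB, the liver and brain phosphorylases, were lower by 0.59 and 0.27 and by 0.27 and 0.31.

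Among 54 oxidative phosphorylation genes, 30 were below with both hairpins and 6 above, with medians of -0.03 and -0.17. NDUFB6, of complex I, read 8.67, 8.17 and 7.46, and COX7C, of complex IV, was the only 1 past 1.5-fold higher, at 9.24, 10.13 and 10.06. Cytosolic ribosomal protein genes, 55 in all, had medians of 0.00 and 0.06 and none past 1.5-fold, beside 1.44% of all genes. MXD1, which opposes MYC at its partner MAX, read 7.57, 8.50 and 8.67, but 8.66 in FAL-1 Ctrl. MYC itself differed by -0.53 and -0.08.

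The high level of HMOX1 stood alone among NRF2 targets. Of 43 measured genes of NRF2 and haem handling, 12 were above with both hairpins and 8 below, and HMOX1 was the only 1 past 1.5-fold. HMOX2, the constitutive haem oxygenase, was lower by 0.16 and 0.30, and SLC40A1, the iron exporter, was higher by 0.34 and 0.43. SLC7A11, the cystine carrier, read 6.90 in the control, 6.51 with shRNA1 and 8.55 with shRNA2, and the mean of the hairpins was 1.99 below FAL-1 Ctrl. Among 20 heat shock genes, DNAJB4, a cytosolic co-chaperone, was past 1.5-fold higher with both (8.55, 9.37 and 9.41), and HSPB1, a small heat shock protein, was lower by 0.53 and 0.46.

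For the unfolded protein and amino acid response, the choice of control decided the direction of some members. DDIT3, the stress factor CHOP, read 7.34 in BMI1 Ctrl, 8.29 with shRNA1 and 8.39 with shRNA2, but 10.07 in FAL-1 Ctrl. SESN2, which senses leucine and restrains mTORC1, read 8.62, 9.54 and 9.72, and 10.06 in FAL-1 Ctrl. PHGDH, SHMT2 and PSAT1, of serine and one-carbon metabolism, were below both controls: PHGDH read 11.37, 10.58 and 10.74, SHMT2 10.66, 9.86 and 10.30, and PSAT1 11.41, 11.08 and 10.77. Over the 40 genes of the list the medians were -0.27 and -0.05, and -0.69 on average against FAL-1 Ctrl. MTHFD2, a mitochondrial folate enzyme, differed by -0.26 and -1.68.

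In the lysosome and autophagy list, 18 of 40 genes were above the control with both hairpins and 2 below, with medians of 0.07 and 0.23, and -0.11 against FAL-1 Ctrl. GABARAPL1, which joins autophagosome membranes, read 8.95, 9.93 and 9.92 and was also 0.76 above FAL-1 Ctrl. NBR1, an autophagy receptor, was higher by 0.63 and 0.55, but -0.17 from FAL-1 Ctrl. NEU1, a lysosomal sialidase, went to either side of the control, at 9.61, 8.57 and 10.13. TXNIP, which restrains glucose uptake, was higher by 0.75 and 0.44 against BMI1 Ctrl and lower by 1.14 against FAL-1 Ctrl.

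Polycomb is best known for silencing HOX and other developmental genes, and those measured were near the control. Of 39 HOX genes 27 were measured, 10 above with both hairpins and 9 below, with medians of -0.06 and 0.04 and none past 1.5-fold. Over all genes, 32.9% were above and 30.7% below with both hairpins, and 1.44% were past 1.5-fold either way. In lists of this size, none past 1.5-fold is near that share. Only 1 of 11 listed genes of the A cluster was measured, so that cluster was hardly covered. This gene was lower by 0.31 and 0.54 but lay 0.34 above FAL-1 Ctrl on average. HOXB6 and HOXB8 were higher by 0.38 and 0.39 and by 0.30 and 0.24. HOXC5 and HOXC9 were lower by 0.35 and 0.48 and by 0.34 and 0.21, although both lay above FAL-1 Ctrl (by 0.36 and 0.22). In the D cluster, 5 of 9 were above and 2 below, and HOXD8 was higher by 0.17 and 0.33. Of 69 developmental transcription factors, 31 were above with both hairpins and 7 below, with medians of -0.02 and 0.16 and none past 1.5-fold. NKX2-5, a cardiac homeobox factor, read 9.24, 9.46 and 10.02, ZIC2, a neural zinc finger factor, 7.76, 8.06 and 8.09, and GATA6 7.19, 7.41 and 7.59. The median control level of this list was 6.94, in the range in which 72.3% of all genes read higher with shRNA2 than with shRNA1. HOXD8 lay below FAL-1 Ctrl, by 0.09 on average.

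**Figure D5:**
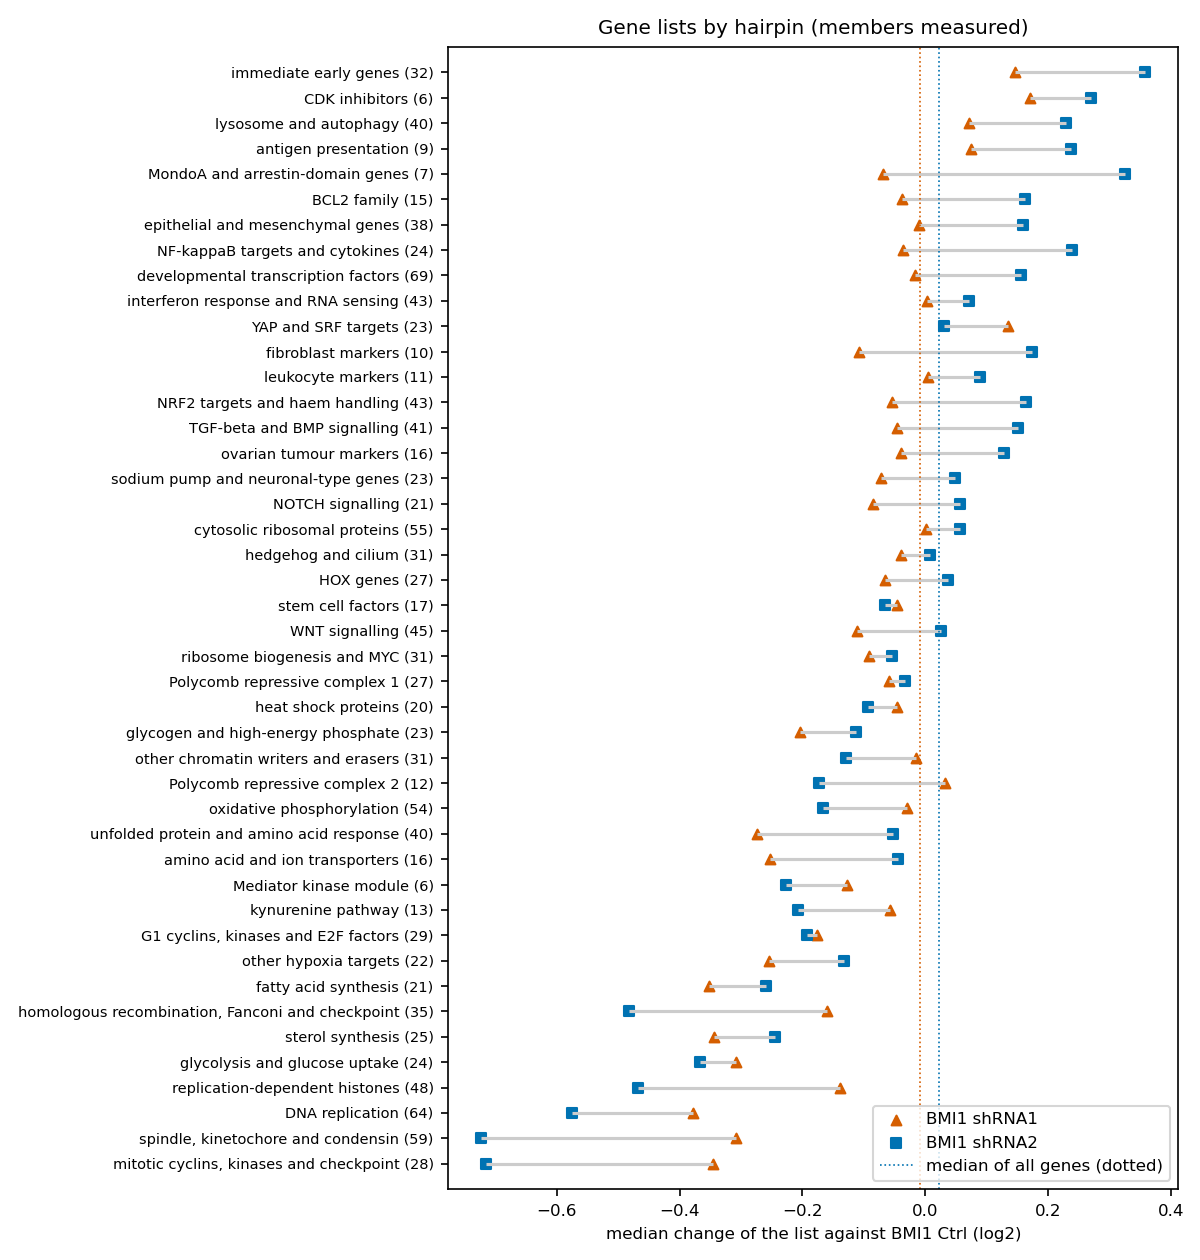
Median change against BMI1 Ctrl (log2, horizontal) of each gene list reported with shRNA1 (triangles) and shRNA2 (squares), with the number of measured members in brackets; dotted lines are the medians of all genes. Cell division lists lie at the bottom, with shRNA2 further left, and the immediate early genes at the top, at 0.15 and 0.36, although their median against FAL-1 Ctrl was -0.05.

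Among other chromatin genes none of 31 was past 1.5-fold with both hairpins, beside 1.44% of all genes. SUV39H1, a histone H3 methyltransferase of heterochromatin, was lower by 0.60 and 0.41, DNMT1, the maintenance DNA methyltransferase, by 0.38 and 0.37, and EHMT2, also called G9a, by 0.43 and 0.49. TET1, which oxidises methylcytosine, differed by -0.36 and -1.17, and HDAC1 by -0.99 and -0.24.

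Signalling genes gave scattered members rather than shifts of a list. In WNT signalling, FZD2, a receptor, read 9.82, 8.92 and 8.99 and was the only 1 of 45 past 1.5-fold lower, and FZD6 was higher with shRNA1 (1.35) more than with shRNA2 (0.27). In NOTCH signalling, RBPJ, the DNA-binding partner of NOTCH, read 10.15, 9.56 and 9.72, NOTCH1 8.84, 8.32 and 8.50, and the target NRARP 8.76, 8.07 and 8.26, while the target HEY1 was at the control with shRNA1 and 1.30 higher with shRNA2. In hedgehog signalling PTCH1, receptor and target, was lower by 0.39 and 0.68, GLI2 by 0.42 and 0.53, and GPR161, a receptor that TULP3 carries into the cilium, by 0.33 and 0.20. LTBP1, which stores TGF-beta in the matrix, read 7.71, 6.67 and 6.90.

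Immediate early genes depended on the control array. Of 32, 22 were above BMI1 Ctrl with both hairpins, with medians of 0.15 and 0.36, but the median against FAL-1 Ctrl was -0.05. EGR1 read 9.54, 10.52 and 10.37, and its mean lay 0.21 below FAL-1 Ctrl. Among YAP and SRF targets, ANKRD1 and CCN2 stayed above both controls: ANKRD1 read 7.35, 8.26 and 7.98 and was 1.73 above FAL-1 Ctrl.

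Interferon and antigen presentation genes did not share a direction. Of 43 interferon response and RNA sensing genes, 17 were above and 14 below with both hairpins. IFITM1, which blocks virus entry, read 8.78, 7.97 and 7.36, and IFIT1 9.98, 9.28 and 9.52, both below both controls. TLR3, a sensor of double-stranded RNA, read 6.98, 8.38 and 7.54, and RIGI was higher by 0.37 and 0.44. TAP1, the peptide transporter, read 8.92, 9.21 and 10.08.

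Of 173 microRNA gene symbols, 69 were above with both hairpins and 42 below, and only MIR21 and MIR15A were past 1.5-fold with both. Over all genes, 32.9% were above and 30.7% below with both, and 1.44% were past 1.5-fold either way. The 2 symbols past 1.5-fold are thus no more than that share, and they were chosen after their values were seen. Their mature sequences, from RefSeq on GRCh38.p14, are given with the seed, bases 2 to 8, in capitals, since the seeds differ.
hsa-miR-21-5p, chr17:59841273-59841294, plus strand: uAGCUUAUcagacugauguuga
hsa-miR-15a-5p, chr13:50049167-50049188, minus strand: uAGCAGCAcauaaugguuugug
MIR21 read 6.58 in the control, 7.62 with shRNA1 and 7.84 with shRNA2, and 7.24 in FAL-1 Ctrl. MIR15A read 7.84, 7.19 and 6.86, and 7.28 in FAL-1 Ctrl. DLEU2, the host gene of MIR15A, differed by 0.14 with shRNA1 and -1.31 with shRNA2. The array labels whole transcripts, so these values may be those of the precursor or host RNA and not of the mature microRNA.

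Markers of cell identity were checked on the same 3 arrays. Several epithelial markers of ovarian tumours lay under the median of the control array (7.58), such as EPCAM (6.01 in the control), MUC16 (5.94) and PAX8 (6.67), while KRT8 (9.48) and KRT18 (9.10) lay over it. Matrix genes common in fibroblasts also lay over it, with POSTN at 12.43 and COL3A1 at 10.58. Because probe sets differ in brightness, these positions do not decide whether a gene is expressed. Leukocyte markers, at 5.08 for PTPRC to 7.75 for CD68 in the control, had medians of 0.01 and 0.09 over 11 genes. Ovarian markers had medians of -0.04 and 0.13 over 16 genes. In the fibroblast list PDGFRB, a growth factor receptor, was past 1.5-fold lower with both hairpins (7.92, 6.69 and 7.09), LUM was 0.76 higher with shRNA2 only but 0.74 below FAL-1 Ctrl on average, and 4 of 10 lay above and 4 below with both.

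The last comparison was between the change with BMI1 knockdown and that with FAL-1 knockdown, each against its own control. Of the 99 genes at least 1.5-fold higher with both BMI1 hairpins, 85 were also above FAL-1 Ctrl with both FAL-1 hairpins. Of the 166 lower genes, 125 were below it with both. The same share over all genes was not counted, so these counts do not show whether the knockdowns share a response. With the FAL-1 hairpins CDKN1A differed by 0.52 and 2.05, HBP1 by 0.78 and 0.96, and CKB by -0.58 and -1.22. No gene differed at an adjusted limma p of 0.05 (0%), and 148 (0.804%) did at an unadjusted p of 0.05. DDIT3 had the smallest p, with a difference of 1.92 between the knockdowns (limma adjusted p = 0.9999). It was higher with both BMI1 hairpins (0.95 and 1.05) and lower with both FAL-1 hairpins (-0.94 and -0.90), and its 2 controls themselves lay at 7.34 and 10.07. CCNC, in contrast, had controls at 10.42 and 10.44, was lower with both BMI1 hairpins and differed by 0.11 and 0.09 with the FAL-1 hairpins, for a difference of -1.31. PI15, a secreted peptidase inhibitor, was lower with the BMI1 hairpins (-0.58 and -0.54) and higher with the FAL-1 hairpins (0.79 and 1.06). NCEH1, a cholesteryl ester hydrolase, showed the reverse, at 0.79 and 0.90 against -0.38 and -0.27. SQLE was lower by 1.42 and 1.24 with the BMI1 hairpins and by 0.37 and 0.17 with the FAL-1 hairpins, although FAL-1 Ctrl stood at 10.97. BMI1 itself read 10.84 and 10.51 with the FAL-1 hairpins, beside 10.84 in FAL-1 Ctrl.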

How the data were processed

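Per the labels' protocols, RNA from 6 cultures of A2780 cells, taken 96 hours after infection with lentivirus whose medium was replaced at 24 hours, was amplified and hybridised to 1-colour Affymetrix whole-transcript arrays, 1 per culture. The authors deposited log2 values of 33252 probe sets per array, and per the submitters' processing notes these log2 values come from RMA, which corrects background, normalizes between arrays and summarises probes, and tends to compress small signals; its version and the genome build are not stated. Values were used as deposited.

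A platform annotation gave 1 symbol to 19460 probe sets and several to 1754, and did not list 12038. Each gene was represented by its brightest probe set (769 genes had several), which left 18418 genes; the BMI1 probe set was kept although it carries a second symbol. Groups followed the infection labels. The 6 arrays entered a single model of 4 groups, tested two-sided with limma 3.58.1 under R 4.3.3 and Benjamini-Hochberg adjustment over all genes, for BMI1 hairpins minus BMI1 Ctrl and for the difference from the FAL-1 knockdown; each lone control array is assumed to vary like the hairpin pairs. The fit was tested on simulated data. Counts at 1.5-fold with both hairpins carry no test. Promoter letters and microRNA sequences are from RefSeq on GRCh38.p14; 14240 of 18418 genes had a promoter there.

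Gene lists (46) and all members were chosen with earlier results of these data known. Named genes were up to 15 per direction by the smaller of the 2 hairpin changes, up to 6 for each way that the hairpins can disagree, up to 5 per direction in each list and the widest gap between hairpins, up to 5 per direction by the difference from the FAL-1 knockdown, all Polycomb genes and CDK inhibitors, and always BMI1, CDKN1A, CDKN2A, CDKN2B and MDM2, which differed by 0.24 and 0.23; another gene of this rule and the lists tied to it are not reported here. MIR21 and MIR15A, the metallothioneins and the markers given only by level lie outside that rule. Alternatives were the other control, both controls, quantile normalization, cyclic loess, brighter genes, the mean of probe sets, other eBayes settings, the BMI1 arrays alone, a block for hairpin number, dropping either hairpin, and other thresholds.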

Additional observations from a re-analysis of the deposited data

How the results depend on the processing

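No gene passed an adjusted p of 0.05 in limma for BMI1 knockdown under any alternative run. At an unadjusted limma p of 0.05 the count of 477 genes (189 higher and 288 lower) became 1043 (329 and 714) with FAL-1 Ctrl as the control, 949 (316 and 633) with the mean of both controls, 762 (274 and 488) on the 3 BMI1 arrays alone and 183 (81 and 102) on the brighter genes, where fewer genes were tested; quantile normalization gave 284 higher genes, and leaving out 1 hairpin gave 432 to 503 in all. Hairpin numbers are shared with the FAL-1 arrays but name different sequences, so they pair nothing; with the hairpin number as a replicate block the count was 782 (304 and 478), with 0 at the adjusted p. The difference from the FAL-1 knockdown went from 148 genes to 1469 (444 and 1025) with controls exchanged and to 29 (19 and 10) on the brighter genes. The cause of these shifts was not tested, apart from the smaller number of genes.

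The 99 higher and 166 lower genes at 1.5-fold with both hairpins became 178 and 378 with FAL-1 Ctrl, 19 and 17 at 2-fold, 33 and 86 against each of the 2 controls (added after the data were seen), and 322 to 363 and 600 to 709 with 1 hairpin left out. For shRNA1 alone the counts at 2-fold were 46 higher and 95 lower, and for shRNA2 alone 80 and 114; lower genes against FAL-1 Ctrl were 951 and 1095.

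With FAL-1 Ctrl as the control, 21 of 46 list medians moved by more than the SD between the medians of the 2 hairpins, and the cause was not tested. Against FAL-1 Ctrl, 22 named genes had a mean of the opposite sign: PFKFB2 -0.070, MXD1 -0.080, HOXD8 -0.087, RING1 -0.14, NBR1 -0.17, EGR1 -0.21, H2BC21 -0.21, CDKN1B -0.32, PCGF1 -0.41, SESN2 -0.43, PTGS2 -0.43, LUM -0.74, TXNIP -1.14, DDIT3 -1.73, SLC7A11 -1.99, BCL2L11 0.036, PCGF5 0.045, PCGF6 0.075, HELLS 0.11, BID 0.13, HOXC9 0.22 and HOXC5 0.36. With the mean of both controls 6 did: CDKN1B -0.024, PCGF1 -0.17, LUM -0.18, TXNIP -0.27, DDIT3 -0.36 and SLC7A11 -0.68. SUZ12 was at 0.0051 after quantile normalization. With 1 hairpin left out the range spanned 0 for SEMA3A (-0.061 to 1.12), EED (-0.075 to 0.12), CD151 (-1.95 to 0.0027), NEU1 (-1.04 to 0.52), HEY1 (-0.030 to 1.30), PTGS2 (-0.17 to 2.04), SLC7A11 (-0.38 to 1.66), SUZ12 (-0.21 to 0.13), DLEU2 (-1.31 to 0.14) and RDH11 (-1.52 to 0.26). The number of arrays limits the precision of every value.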
